A study of Mus with 4 samples.

Results

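The genes described here are those of FGF receptor and MAPK signalling, a list of 34 genes fixed by name: FGF ligands, their receptors, the adaptors below them, members of the Ras-MAPK cascade, the Sprouty, Spred and Dusp6 inhibitors, and the Etv factors. Every non-control probe whose accession matched one of these symbols was taken. For 33 of the 34 genes this gave 49 probes, of 41174 probes and 16358 named genes on the array, and *Braf* had no match. Transcripts were measured in GFP+ cells sorted from kidneys of mouse embryos at embryonic day 15.5. *Mut* embryos were *Six2* Cre+/*PRR* flox/flox, which is meant to remove the prorenin receptor (PRR) from the *Six2* lineage, and *WT* embryos were their *Six2* Cre+/*PRR* +/+ littermates. Both groups carried the *Six2GFPCre* TGC transgene, which drives Cre and GFP in nephron progenitors, so the sort takes cells that carry GFP and not a single defined cell state. Each RNA came from a pool of kidneys. Arrays 1, 2 and 3 each paired a *Mut* pool, in Cy3, with a *WT* pool, in Cy5. Array 4, called the *WT*/*WT* array (WT vs WT in the plots), carried the first *WT* pool in Cy5 beside the second in Cy3. The question the design poses is which transcripts differ when progenitors lack PRR.

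FGF ligands bind receptor tyrosine kinases at the cell surface. The docking protein Frs2 then recruits Grb2 and Sos1, which load Ras with GTP, and a cascade of kinases that ends in Mek and Erk follows. Erk activity raises transcription of the Etv4 and Etv5 factors and of inhibitors such as Spry1, Spry2, Spry4 and Dusp6, which dampen the same pathway. In the developing kidney this signalling is known for keeping nephron progenitors alive and undifferentiated, with Fgf9 and Fgf20 as ligands and Fgfr1 and Fgfr2 as receptors.

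Some properties of the whole series bear on every value below. The dyes were never exchanged on arrays 1 to 3, so genotype and dye cannot be told apart there. The *WT*/*WT* array holds no difference of genotype, shares *WT* pools 1 and 2 with arrays 1 and 2 and is given beside the larger differences as log2 Cy3/Cy5. *Atp6ap2*, the gene of PRR, had a log2 *Mut*/*WT* of -0.08, -0.19 and -0.25 on arrays 1 to 3, a mean of -0.17 that passed the adjusted *P* (0.0352, limma), and -0.19 on the *WT*/*WT* array. With a dye term taken from that array it was at 0.02. The size of its ratio was thus no larger than that between *WT* pools, and the directions below follow the dye labels. When *WT* pool 1 was read again on array 4, its signal was closer to the mean of *Mut* pools than of *WT* pools for 39.6% of all genes, and for 3 of the 12 members past the adjusted *P* described below, *Map2k2*, *Mapk3* and *Spred1*. Well above background were 45.1 to 51.1% of the probes in Cy3 and 54.2 to 58.4% in Cy5, and 0 spots were saturated. Of 13 nephron progenitor markers 12 were well above background in both channels on arrays 1 to 3, *Six2* among them. Markers of other cells were detected as well, for 9 of 11 stroma, 7 of 11 ureteric bud, 2 of 7 endothelium, 2 of 7 erythroid and 3 of 5 macrophage genes. Markers of 1 list did not go together on arrays 1 to 3. *Ret*, a defining gene of the ureteric bud, lay below background in every channel, while *Wnt11* of the same list was above it in all. *Foxd1*, a defining gene of the stroma, was above it in all, while *Tbx18* of that list was not above it in any *Mut* pool. In such sorted pools, fewer cells of a type and less RNA per cell cannot be told apart.

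Of the 33 genes, *Fgfr1* (mean log2 *Mut*/*WT* -0.73, SE 0.091) and *Etv4* (-0.90, SE 0.053) were lower in *Mut*, and *Spry1* (0.56, SE 0.059) and *Fgf18* (0.52, SE 0.052) were higher by slightly less than 1.5-fold, each over 3 arrays. The direction of *Spry1*, *Fgf1* and *Map3k1* here, higher in *Mut*, opposes that of the study's lists, which place these genes among those lower in *Mut*. The same holds for *Fgf8*, *Lhx1*, *Ccnd1* and *Pdgfrb*, which are no members and are given further on. A gene is represented by its probe with the highest mean signal, and its value is the log2 *Mut*/*WT* ratio, averaged over 3 arrays and tested against 0 with limma. A probe was called at an adjusted *P* under 0.05 and a change over 1.5-fold. Of the members 2 of 33 (6.06%) were called, both lower, while 2.02% of all genes were called (1.58% lower and 0.434% higher). Neither call held with a normexp offset of 0, with median centring or with the methods' *t*-test after Benjamini-Hochberg adjustment, under which limma or that test called 0 probes in all. *Etv4* was then at -0.97, -1.45 and -0.90 (adjusted *P* = 0.111, 0.0816 and 0.132) and *Fgfr1* at -0.77, -1.30 and -0.73 (adjusted *P* = 0.121, 0.0818 and 0.212), each still over 1.5-fold. The adjusted *P* alone was passed by 12 of 33 (36.4%), against 33.0% of all genes. Of these 12, 8 were lower (24.2%, against 18.6% of all genes) and 4 were higher (12.1%, against 14.4%). The share past the adjusted *P* was thus near that of the array as a whole. The median log2 *Mut*/*WT* of the members was -0.04, with a range of -0.90 to 0.56, and 16 genes lay above and 17 below 0 (49.2% of all genes lay above). The 21 members not past the adjusted *P* lay between -0.13 and 0.15. On the *WT*/*WT* array the members ranged from -0.28 to 0.27, and 0 of 33 reached 1.5-fold. Its ratio had the sign of the *Mut*/*WT* ratio for 12 of the 12 members past the adjusted *P*, against 82.8% of all such genes. With a dye term from that array, 12 of these 12 were smaller in size. 

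**Figure D1:**
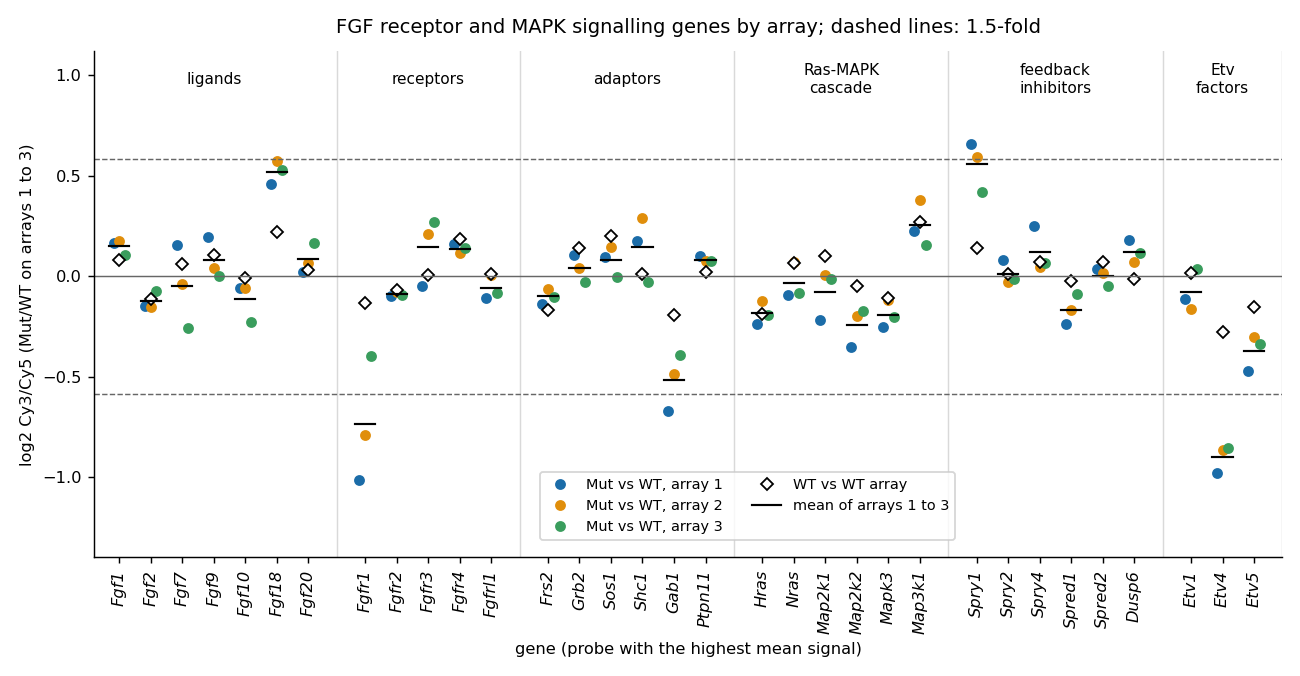
log2 Cy3/Cy5 of the 33 genes, grouped by role. Filled points are arrays 1 to 3 (*Mut*/*WT*), bars their mean, open diamonds the *WT*/*WT* array, and dashed lines 1.5-fold. *Fgfr1* and *Etv4* are the only genes whose mean passes a dashed line, and no diamond does.

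The plot of the members by array shows the 3 ratios of each gene with the *WT*/*WT* array beside them. In 22 of the 33 genes (66.7%) the ratio had the same sign on all 3 arrays, as in 63.2% of all genes. The arrays did not contribute evenly: among the 12 genes past the adjusted *P*, the ratio was largest in size on array 1 for 9, on array 2 for 3 and on array 3 for 0.

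Among the 7 ligands, 2 passed the adjusted *P*, both higher. *Fgf18* (NM_008005), a ligand best known from bone and lung development, had normalized log2 signals of 7.62, 7.80 and 7.56 in the *Mut* pools and 7.16, 7.22 and 7.03 in the *WT* pools. All 3 *Mut* values lay above all 3 *WT* values, a mean log2 *Mut*/*WT* of 0.52 (SE 0.052, adjusted *P* = 3.84e-05, n = 3 arrays, limma). On the *WT*/*WT* array its log2 Cy3/Cy5 was 0.22. When a per-probe dye effect taken from that array was fitted too, 0.30 was left (adjusted *P* = 0.211). *Fgf1*, a ligand that binds every FGF receptor, was at 0.16, 0.18 and 0.10 on arrays 1 to 3, a mean of 0.15 (adjusted *P* = 0.0488), with 0.08 on the *WT*/*WT* array. The other two ligands well above background in all channels did not pass: *Fgf20*, a ligand made by nephron progenitors themselves, was at 0.08 (adjusted *P* = 0.263), and *Fgf10*, which drives branching of epithelial buds, at -0.12 (adjusted *P* = 0.145). *Fgf9*, a ligand of the ureteric bud and the progenitors, was well above background on 0 of 3 arrays in *Mut* and 2 of 3 in *WT*, with measured log2 ratios of 0.19, 0.04 and 0.00. *Fgf2* was above background on 3 arrays in *WT* and 0 in *Mut*, which gives at least a 1.09-fold lower level in *Mut*, with a log2 ratio of -0.13 that did not pass (adjusted *P* = 0.0902). On array 4 it was likewise above background in Cy5 alone, at a log2 Cy3/Cy5 of -0.12, and with the dye term the difference was -0.01. *Fgf7*, a ligand of mesenchymal cells, stayed near background in both channels.

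Of the 5 receptors, *Fgfr1* alone passed the adjusted *P*. *Fgfr1* (NM_010206), a receptor tyrosine kinase that nephron progenitors use, had log2 signals of 8.84, 8.89 and 9.35 in the *Mut* pools against 9.86, 9.68 and 9.75 in the *WT* pools. The *Mut* and *WT* values did not overlap, and *Mut* pool 3 lay nearer to *WT* than the other two. Its log2 *Mut*/*WT* was -1.02, -0.79 and -0.40 on arrays 1 to 3, a mean of -0.73 (SD 0.31, SE 0.091, adjusted *P* = 0.000144), that is, 1.66-fold lower. Of all members it had the widest spread between arrays, and leaving out 1 array gave -0.90 to -0.59. On the *WT*/*WT* array its log2 Cy3/Cy5 was -0.13. When a dye term taken from that array was added to the fit, the difference was -0.60 and no longer passed (adjusted *P* = 0.157).

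*Fgfr2*, the other receptor known from progenitors, was at -0.10, -0.08 and -0.09 on arrays 1 to 3, a mean of -0.09 with the smallest spread of all members (SD 0.011), and did not pass the test (adjusted *P* = 0.209). *Fgfr3* was at -0.05, 0.21 and 0.27, a mean of 0.14 (adjusted *P* = 0.122) that was 0.24 and passed without array 1 (adjusted *P* = 0.0072). *Fgfr4* was at 0.14 (adjusted *P* = 0.0621), with 0.18 on the *WT*/*WT* array. *Fgfrl1*, a receptor without a kinase domain that is needed for nephron formation, was at -0.06 (adjusted *P* = 0.414).

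The 6 adaptors were well above background in all channels, and *Gab1* alone passed. *Gab1* (NM_021356), a docking protein that brings Ptpn11 and PI3 kinase to activated receptors, had log2 signals of 7.19, 7.26 and 7.35 in *Mut* and 7.86, 7.75 and 7.74 in *WT*. The groups did not overlap, and the log2 *Mut*/*WT* was -0.67, -0.49 and -0.39, a mean of -0.52 (SE 0.061, adjusted *P* = 0.000106), 1.43-fold lower and so short of the fold minimum. Its log2 Cy3/Cy5 on the *WT*/*WT* array was -0.19, and with the dye term the difference was -0.33 (adjusted *P* = 0.248). The docking protein *Frs2* was at -0.10, the linker *Grb2* at 0.04, the exchange factor *Sos1* at 0.08, the linker *Shc1* at 0.15 and the phosphatase *Ptpn11* at 0.08, none past the adjusted *P* (0.107 to 0.613). Without array 3 *Shc1* was at 0.23 and passed (adjusted *P* = 0.0066).

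In the Ras-MAPK cascade 4 of 6 genes passed the adjusted *P*, none of them past 1.5-fold. Of all genes 33.0% passed it. *Map2k2* (Mek2) was at -0.35, -0.20 and -0.17, a mean of -0.24 (adjusted *P* = 0.00676, -0.05 on the *WT*/*WT* array), *Mapk3* (Erk1) at a mean of -0.19 (adjusted *P* = 0.0186, -0.11 on that array) and the GTPase *Hras* at -0.18 (adjusted *P* = 0.0206). These kinases and the GTPase differed by less than 1.2-fold. The upstream kinase *Map3k1* was at 0.23, 0.38 and 0.16, a mean of 0.25 (adjusted *P* = 0.00619). For *Hras* and *Map3k1* the *WT*/*WT* array gave -0.19 and 0.27, values as large as their *Mut*/*WT* differences, and with the dye term both stood near 0, at 0.00 and -0.02. *Map2k1* (Mek1) was at -0.08 and *Nras* at -0.04, neither past the test at its brightest probe.

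Among the 6 feedback inhibitors *Spry1* had the largest difference. *Spry1* (NM_011896), a Sprouty protein that restrains receptor tyrosine kinases in the kidney, had log2 signals of 11.16, 11.01 and 10.83 in the *Mut* pools and 10.50, 10.41 and 10.41 in the *WT* pools. Every *Mut* value lay above every *WT* value. Its log2 *Mut*/*WT* was 0.66, 0.59 and 0.42, a mean of 0.56 (SE 0.059, adjusted *P* = 5.03e-05), 1.47-fold higher, and without array 3 it was 0.63 and passed the fold minimum. The *WT*/*WT* array gave 0.14, and with the dye term the difference was 0.42 (adjusted *P* = 0.127). *Spred1*, which keeps Ras inactive through neurofibromin, was at -0.17 (adjusted *P* = 0.0361, -0.02 on the *WT*/*WT* array), and its paralogue *Spred2* was at 0.00. *Dusp6*, the phosphatase of Erk and a common readout of FGF signalling, was at 0.18, 0.07 and 0.11, a mean of 0.12 that did not pass (adjusted *P* = 0.102). *Spry2* and *Spry4* were not well above background in either channel.

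The 3 Etv factors, targets of FGF signalling in many tissues, had log2 *Mut*/*WT* below 0, and 2 passed the adjusted *P*. *Etv4* (NM_008815), the member with the largest difference, had log2 signals of 8.55, 8.86 and 8.92 in *Mut* against 9.53, 9.72 and 9.77 in *WT*. The lowest *WT* pool lay well above the highest *Mut* pool. The log2 *Mut*/*WT* was -0.98, -0.86 and -0.85, a mean of -0.90 (SD 0.071, SE 0.053, adjusted *P* = 1.13e-06), 1.87-fold lower. On the *WT*/*WT* array its log2 Cy3/Cy5 was -0.28, the lowest of the 33 members. With the dye term the difference was -0.62 and it alone of the members passed the adjusted *P* (0.0187), still over 1.5-fold. That term rests on 1 array, whose ratio holds the difference between *WT* pools 1 and 2 as well as that of the dyes, and the *P* values with it rest on the spread of the other arrays. *Etv5* (NM_023794) was at -0.47, -0.31 and -0.34, a mean of -0.37 (SE 0.055, adjusted *P* = 0.000445), with -0.15 on the *WT*/*WT* array and -0.22 with the dye term (adjusted *P* = 0.389). *Etv1* was at -0.11, -0.16 and 0.04, a mean of -0.08 (adjusted *P* = 0.312).

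**Figure D2:**
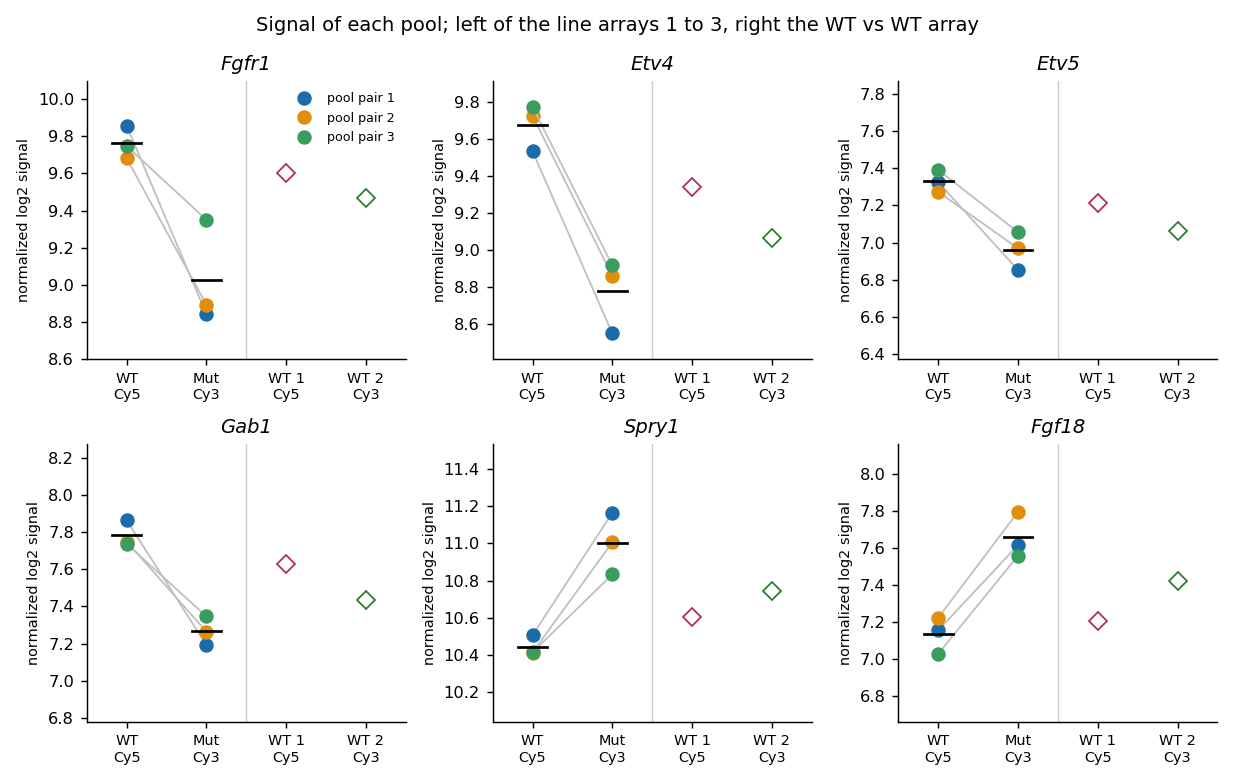
Normalized log2 signal of each pool for 6 genes. Left of the line are *WT* (Cy5) and *Mut* (Cy3) pools of arrays 1 to 3, with lines joining the pools of an array and bars for means. To the right are the first *WT* pool (Cy5) and the second (Cy3) on array 4. *WT* and *Mut* do not overlap for any of the 6, and for each of them *WT* pool 2 in Cy3 lies between the *WT* and *Mut* means.

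The plot of the signal of each pool sets these values beside the 2 channels of array 4. *Mut* and *WT* signals did not overlap for 17 of the 33 members (51.5%), where 40.9% of all genes had none, and the 17 include all 12 past the adjusted *P*. The overlap is read from the same arrays as the test and adds no support to it. Set against *WT* pool 2 in the same dye (Cy3), the average *Mut* signal was within 1.5-fold for all 12 of these genes. The mean *Mut* signal minus that of *WT* pool 2 was -0.44 for *Fgfr1*, -0.29 for *Etv4*, -0.17 for *Gab1* and -0.10 for *Etv5*. It was 0.26 for *Spry1*, 0.23 for *Fgf18*, 0.21 for *Map3k1* and 0.05 for *Fgf1*. For *Map2k2* it was -0.06, for *Spred1* -0.05 and for *Hras* 0.00, and *Mapk3*, lower in *Mut* on arrays 1 to 3, lay 0.17 above that pool. This rests on 1 *WT* pool and 1 array and was not tested. *WT* pool 1 was read in Cy5 on arrays 1 and 4, and the reading on array 4 differed from the other by -0.25 for *Fgfr1*, -0.19 for *Etv4*, 0.10 for *Spry1* and 0.05 for *Fgf18* on the log2 scale. Of the 12 genes past the adjusted *P*, the repeat reading differed by more than the *Mut*/*WT* difference for 3, *Map3k1* (-0.31), *Mapk3* (-0.37) and *Spred1* (-0.18). Such a repeat holds technical error and not the spread between pools.

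Probes of the same gene did not always give the same value. Of the 33 genes 12 had several probes, and in 4 of these, *Fgf2*, *Fgfr2*, *Fgfr3* and *Frs2*, probes differed in sign. In all, 4 of the 49 member probes (8.16%) were called, against 2.01% of all probes, 3 of them for *Fgfr1*. The 4 *Fgfr1* probes carry the accession of the same transcript. From the brightest to the dimmest their log2 *Mut*/*WT* was -0.73, -0.86, -0.83 and -0.27, and the last passed the adjusted *P* (0.00378) at 1.2-fold. The first 3 probes were thus alike and the dimmest differed by less. For *Etv5* the second probe gave -0.02 (adjusted *P* = 0.851) where the brightest gave -0.37. The second probes of *Spred1* (-0.09, adjusted *P* = 0.254) and *Mapk3* (-0.15, adjusted *P* = 0.0522) did not pass either. The second *Fgfr2* probe was at 0.15 (adjusted *P* = 0.0776), against -0.09 for the first. A dimmer probe of *Frs2*, above background in *WT* alone, gave at least a 1.25-fold lower level in *Mut*, while its brighter probes were at -0.10 and 0.01. On array 4 that probe was also above background in Cy5 alone, at -0.29, and with the dye term its difference was -0.12 (adjusted *P* = 0.668). The second *Nras* probe was at -0.20 and passed the adjusted *P* (0.0145), with -0.25 on array 4. Which part of each transcript a probe binds was not analysed here.

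**Figure D3:**
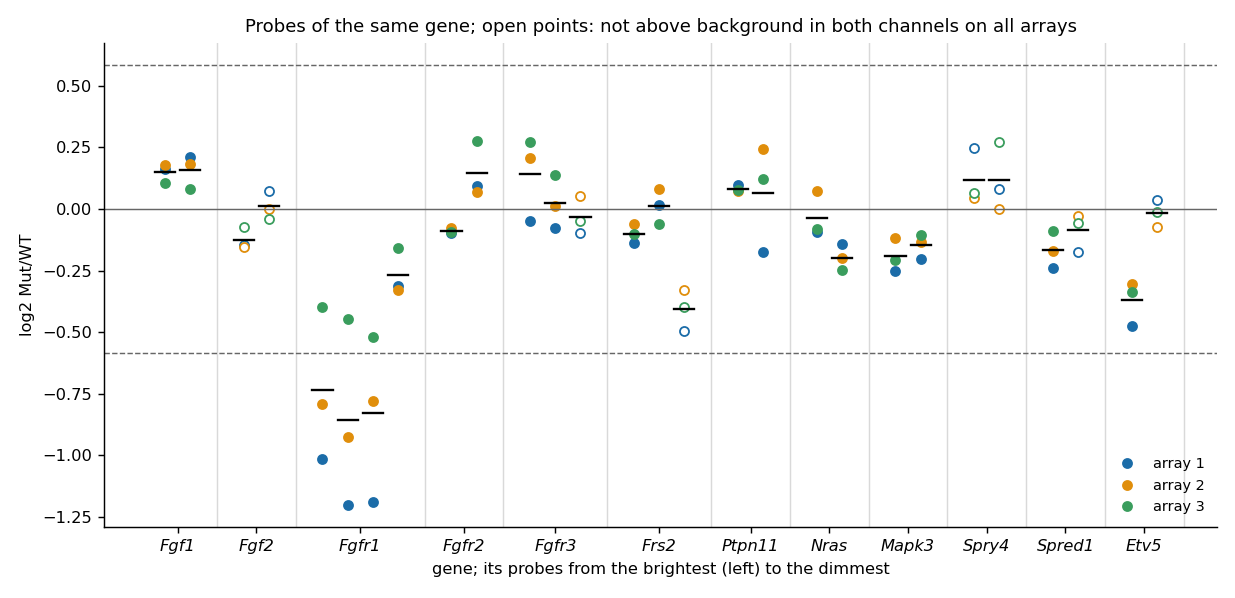
log2 *Mut*/*WT* on arrays 1 to 3 for each probe of the 12 genes with several probes, from the brightest on the left of each gene, with bars for means and dashed lines at 1.5-fold. Open points mark probes not well above background in both channels on all arrays. Means past 1.5-fold are seen for 3 probes, all of *Fgfr1*.

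The plot of the probes of each gene shows that *Fgfr1* stands out from the other multi-probe genes by the size and by the spread of its ratios, with array 1 lowest and array 3 nearest to 0 for each of its 3 brightest probes.

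The place of the members among all probes is shown by the plot of ratio against signal. The mean signals of the members spanned 6.19 to 12.06 on the log2 scale, and 18 of 33 were among the top 25% of all probes by mean signal.

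**Figure D4:**
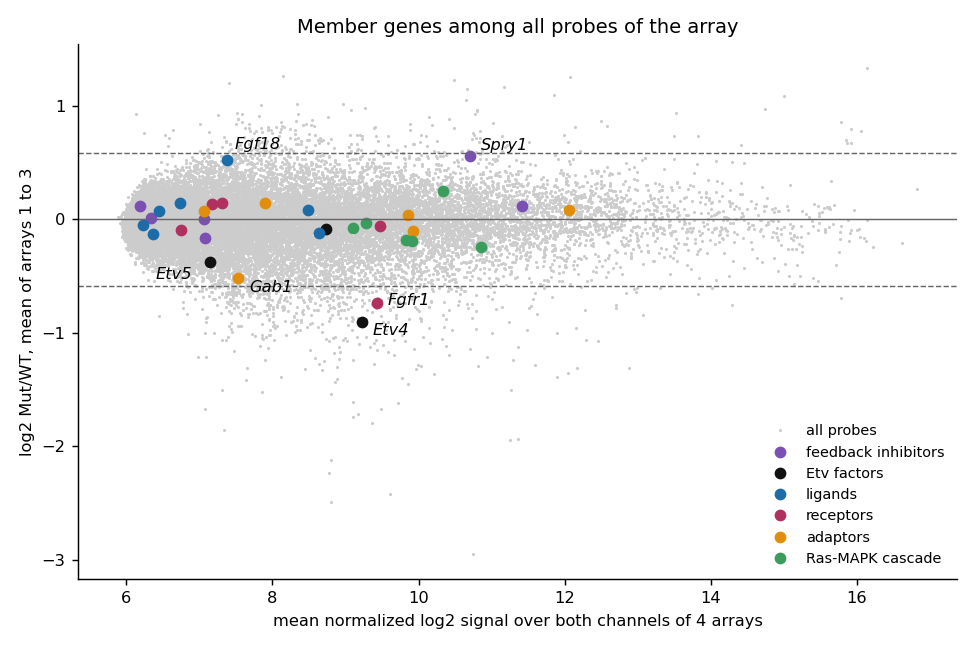
Mean log2 *Mut*/*WT* of arrays 1 to 3 against the mean normalized log2 signal over both channels of 4 arrays. Grey points are all probes, coloured points the 33 members by role, and dashed lines 1.5-fold. The members lie within the bulk of the array apart from *Fgfr1* and *Etv4* below it and *Spry1* near its upper edge.

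How the ratios were normalized mattered for the members' direction. The plot of the 12 genes under 4 ways of processing shows the log2 *Mut*/*WT* of each from the loess ratios, from the log ratios deposited by the authors, with the dye term and with each array centred on its median. *Etv4*, *Fgfr1*, *Gab1* and *Etv5* were below 0 and *Fgf18* and *Fgf1* above 0 in all 4. Under median centring *Spry1* was at -0.06 and *Map3k1* at -0.35, so that both turned, and 27 of the 33 members lay below 0. Under that setting the brightest 25% of all probes had a median of -0.58 and the dimmest 25% one of 0.14, and the median of the members, most of them bright, was -0.40. With the deposited log ratios *Etv4* (-1.03), *Gab1* (-0.85) and *Fgf18* (0.96) were called and *Fgfr1* (-0.80, adjusted *P* = 0.101) was not.

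**Figure D5:**
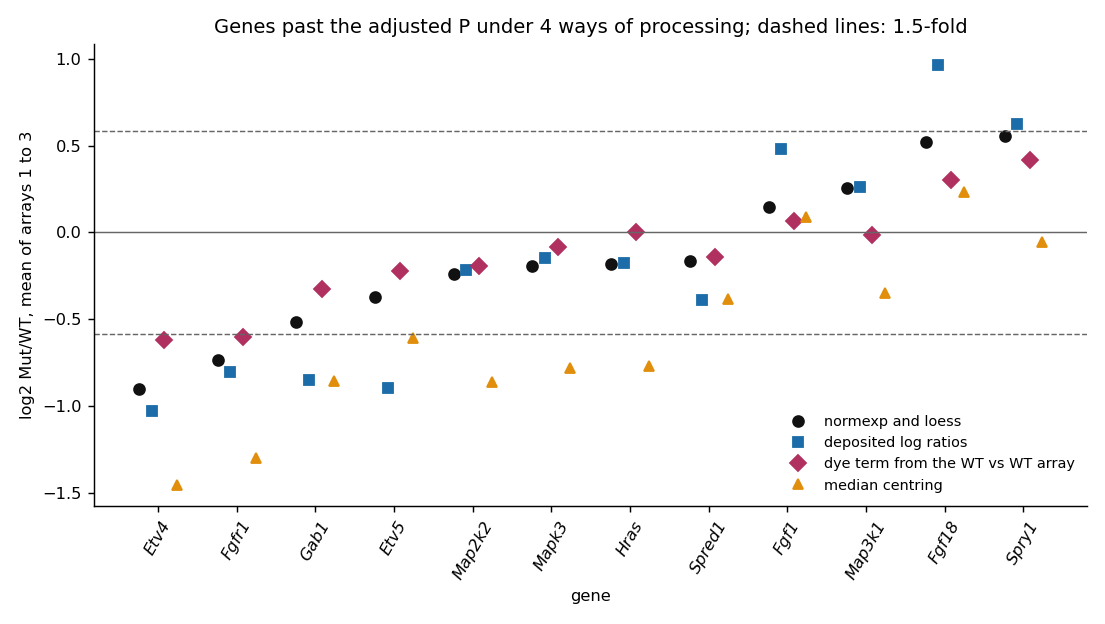
Mean log2 *Mut*/*WT* of the 12 genes past the adjusted *P*, from the most lowered on the left to the most raised, under 4 ways of processing (circles normexp and loess, squares deposited log ratios, diamonds with a dye term, triangles median centring). Dashed lines are 1.5-fold. Triangles lie below the circles for all 12 genes, and *Spry1* and *Map3k1* lie below 0 under median centring.

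Of the further genes of the pathway, few were called. Of 13 further FGF ligands 1, *Fgf8*, was well above background in both channels on all arrays, and it was at 0.40, past the adjusted *P* and short of 1.5-fold, with 0.06 on the *WT*/*WT* array, where *WT* pool 1 lay 0.32 above the *WT* mean and *WT* pool 2 0.03 below the *Mut* mean. *Fgf23*, not above background in either channel, and *Fgf13*, not above it in *Mut*, also passed the adjusted *P*, but their ratios on the *WT*/*WT* array, 0.24 and -0.30, exceeded those on arrays 1 to 3 in size. Of 25 further pathway genes none reached both thresholds at its brightest probe, 2 passed the adjusted *P* upwards and 10 downwards. Of all genes 14.4% passed it upwards and 18.6% downwards. The median of these 25 genes was -0.09, against 0.00 for all genes.

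Of 12 further feedback and target genes 1 was called, *Ccnd1*, the cyclin of the G1 phase, which was higher at 0.67, 0.64 and 0.73 (mean 0.68), with 0.03 on the *WT*/*WT* array. Both *WT* pools of that array read at the *Mut* level: *WT* pool 1 was 0.65 above the *WT* mean of arrays 1 to 3, and the *Mut* mean minus *WT* pool 2 was 0.00. Of 10 immediate early genes, which Erk and stress signals both raise, 2 were called, both higher, where 2.02% of all genes were called. *Fosb* was at 0.77, 0.81 and 0.57 (mean 0.72) and *Junb* at 0.65, 0.69 and 0.63 (mean 0.65), with 0.22 and 0.20 on the *WT*/*WT* array. Against *WT* pool 2 in Cy3 the *Mut* means were at 0.11 and -0.03. *Fos* passed the adjusted *P* at 0.24, *Ier3* (-0.42) and *Atf3* (-0.23) passed it downwards with signals not above background in *Mut*, and *Egr1*, at -0.09, and *Jun*, at -0.02, did not.

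Markers of cell types differed between the groups as well. Of all genes 14.4% passed the adjusted *P* upwards and 18.6% downwards. The summed log2 signal of the 13 nephron progenitor markers was 126.2 to 126.5 in *Mut* and 127.2 to 128.0 in *WT*, with 2 genes past the adjusted *P* upwards and 6 downwards. None of the 13 was called at its brightest probe, while a further probe was called lower for *Meox1* (-0.75) and for *Osr1* (-0.66). For these probes *WT* pool 1 on array 4 was at -0.53 and -0.21 from the *WT* mean, and the *Mut* mean minus *WT* pool 2 was -0.11 and -0.44. For 13 markers of differentiating nephrons it was 94.9 to 95.1 in *Mut* and 92.2 to 92.7 in *WT*, with 6 upwards and 0 downwards and *Lhx1* (0.69) and *Ccnd1* called. For 11 stroma markers it was 98.5 to 99.0 and 97.6 to 97.7, with *Pdgfrb* (0.60), *Col1a1* (0.89) and *Col3a1* (0.78) called higher, *Acta2* (-1.24) called lower and *Foxd1* at -0.30. On array 4 *Pdgfrb* was at 0.18, *Col1a1* at 0.43, *Col3a1* at 0.27 and *Acta2* at -0.51, and the second *Acta2* probe, at 0.39 on arrays 1 to 3, passed the adjusted *P* in the other direction. For 7 erythroid markers it was 50.6 to 51.0 and 47.5 to 48.9, with *Hba-a1* (1.17) called. *Hba-a1* and *Lhx1* too read at the *Mut* level in both channels of array 4, with *WT* pool 1 there 1.36 and 0.80 above the *WT* mean and the *Mut* mean at 0.03 and -0.13 against *WT* pool 2. The ureteric bud list, at 80.2 to 80.5 and 80.5 to 80.6, and the endothelium list, at 46.6 to 46.8 and 46.8 to 47.2, had 0 genes past limma's adjusted *P* in either direction (2 of 11 and 1 of 7 at an unadjusted *P* under 0.05), and the macrophage list, at 33.9 to 34.4 and 34.6 to 34.6, had 3 downwards. These sums leave out array 4. On that array *WT* pool 1 lay nearer to the *Mut* mean for 6 of 13 nephron progenitor and 7 of 13 differentiating nephron markers. The same held for 4 of 11 stroma, 4 of 7 erythroid, 4 of 7 endothelium, 4 of 5 macrophage and 3 of 11 ureteric bud markers. Over all genes the share was 39.6%. The part of these cell types in the differences of *Fgfr1*, *Etv4*, *Spry1* and *Fgf18* was not tested.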

How the data were processed

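*Mut* and *WT* pools were compared on 3 dual-colour arrays and *WT* pools on 1. The deposited intensity values (median signal and median local background per spot) came from Agilent Feature Extraction 10.7.3.1, without normalization. The authors also deposited log10 ratios of red over green from that program, which equal the table of the series and were used as an alternative. Here the background was corrected by normexp (offset 50), ratios were normalized by loess within arrays, control spots and 122 to 162 outlier spots per array were left out, and spots of a probe were averaged. Channel levels followed Aquantile. Log2 *Mut*/*WT* was tested against 0 with limma 3.58.1 (R 4.3.3), and *P* values of the 41174 probes were adjusted after Benjamini and Hochberg. Calls needed an adjusted *P* under 0.05 and 1.5-fold. Pools of an array deviated together from their group means (correlations 0.388, 0.431 and 0.320 over probes), and each array is a pair by hybridization. The number of arrays limits the precision. The SEs and *P* values of limma rest on each probe's spread between arrays, drawn toward a value shared by all probes. *Fgfr2*, with an SD of 0.011, thus has an SE of 0.051, and *Fgfr1*, with an SD of 0.31, one of 0.091. The *t*-test of the methods uses each probe's own spread alone.

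Symbols came from a GRCm38.p6 gene table, used for names only, for 22951 probes (55.7%). A bound sets the bright group's mean against the higher of the dim probe's signal and the lowest signal among probes well above background on each array. Named were all members, their further probes where called or of the other sign, and of the further lists (FGF ligands, pathway, feedback and target, immediate early genes, and markers of stroma, macrophages, erythroid cells, endothelium, ureteric bud, nephron progenitors and differentiating nephrons) the genes called. *Fgf8*, *Fgf13*, *Fgf23*, *Fos*, *Ier3*, *Atf3*, *Egr1*, *Jun*, *Ret*, *Wnt11*, *Six2*, *Foxd1* and *Tbx18* were added after their values were seen. Members and lists were chosen with earlier results of these data known. The fit was tested on simulated data. Alternatives were the deposited ratios, an offset of 0, median centring, outlier spots kept, dim probes left out, a dye term, no pairing, leaving out each replicate, a *t*-test, no fold minimum and the median over probes. Promoter sequences were not analysed here. Values of 1 further pathway gene are left out of the text.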

Additional observations from a re-analysis of the deposited data

How the results depend on the processing

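Of the 14 alternatives 5 (dim probes left out, both *t*-tests, no fold minimum and no replicate block) keep the means and so cannot turn a gene. Under the other 9, 14 of 33 genes kept their direction, among them *Fgfr1*, *Etv4*, *Etv5*, *Gab1* and *Fgf18*, and 19 turned under at least 1. With the deposited log ratios 2704 probes were called (55.0% of them higher, against 27.4% of the 827), 3 members were called, 1 higher, and 3 lower and 2 higher members passed the adjusted *P*; *Nras* (0.043) and *Etv1* (0.019) turned. With an offset of 0 and with median centring 0 probes and 0 members were called or past the adjusted *P*, and also with the methods' *t*-test after Benjamini-Hochberg adjustment. At limma's unadjusted *P* under 0.05 and over 1.5-fold, 3523 probes and 6 members passed with an offset of 0, and 6032 and 13 with median centring. Without adjustment the *t*-test called 691 probes and 1 member, *Etv4*. Median centring turned *Fgf7* (0.13), *Fgf20* (-0.40), *Fgfr3* (-0.12), *Fgfr4* (-0.10), *Grb2* (-0.55), *Sos1* (-0.13), *Shc1* (-0.28), *Ptpn11* (-0.57), *Map3k1* (-0.35), *Spry1* (-0.056), *Spred2* (-0.20) and *Dusp6* (-0.51). The dye term left 320 probes (45.6% higher) and 1 member called, with 1 lower and 0 higher past the adjusted *P*, and turned *Fgf9* (-0.027), *Fgfr4* (-0.046), *Frs2* (0.066), *Grb2* (-0.10), *Sos1* (-0.12), *Hras* (0.0021), *Map3k1* (-0.017) and *Spred2* (-0.071). Without the fold minimum 12178 probes and 12 members (8 lower, 4 higher) were called. The median over probes turned *Fgfr2* (0.028), called 273 genes, moved *Etv5* to -0.19 and left *Spred1* (-0.13, adjusted *P* = 0.0887) short of the adjusted *P*. The cause of these changes was not tested.

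Leaving out 1 replicate gave 606 to 1207 called probes, 2 to 3 called members, 0 to 1 of them higher (*Spry1* without array 3), and 5 to 8 lower (5 without array 1 or array 2) and 2 to 5 higher members (2 without array 2) past the adjusted *P*. *Fgf1*, *Hras*, *Mapk3* and *Spred1* lost it without array 1 and also without array 2, and *Map3k1* without array 2, while *Fgfr3* gained it without array 1 and *Shc1* without array 3; *Fgf7* (-0.15 to 0.057), *Spry2* (-0.022 to 0.033) and *Spred2* (-0.017 to 0.026) turned. Without the pairing of pools by array (no replicate block) 824 probes were called, with *Fgfr1* and *Etv4* again the members, and 6 lower and 3 higher members passed the adjusted *P*, without *Fgf1*, *Mapk3* and *Spred1*. Keeping outlier spots (827) and leaving out dim probes (826) changed no call of a member, though without dim probes *Fgfr4* also passed the adjusted *P* (5 higher members). *Fgf2*, *Fgf7*, *Fgf9*, *Spry2* and *Spry4* were too dim for a difference to be measured in both channels.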
